A study of Rattus norvegicus with 20 samples.

Results

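The genes described here encode the proteins of the cytosolic ribosome, chosen by gene name: every non-control probe whose name is Rpl or Rps with a number and at most 1 of the letters a, l or x, or is one of the stalk proteins Rplp0 to Rplp2 or Rpsa, with the Rps6 kinase genes left out. That gave 102 probes on 111 spots for 69 genes, of 36459 gene names on the array. They were 40 genes of the large subunit with 63 probes and 29 genes of the small subunit with 39 probes. The 5 animals of day 21 and the 5 of day 7 were rats aged 2 years, studied after stroke in separate cohorts, and each gave a pool of sprouting and a pool of non-sprouting cortical neurons. The tracer cholera toxin B went into 1 site of the cortex beside the infarct, first as CTb-488 and, after survival of 21 or 7 days, as CTb-647, and laser capture 7 days after the later tracer took about 300 neurons of each type. Their total RNA went through 2 rounds of T7 amplification, and a ratio cannot tell fewer cells of a type from less RNA per cell. Every animal had a dye-swap array (sprouting green, non-sprouting red) and a forward array (sprouting red, non-sprouting green). Those arrays share the same RNA, so an animal counted once. All ratios below are log2, sprouting over non-sprouting, after loess within each array. Scanner files gave 5 scan dates, 1 of which held animals of both days.

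A ribosome is assembled from a small subunit, which reads the messenger RNA, and a large subunit, which joins amino acids. Its proteins are made in nearly equal amounts, largely because their messenger RNAs start with a cytosine followed by a run of pyrimidines, the terminal oligopyrimidine tract, whose translation is switched by mTOR. Neurons also hold these messenger RNAs in axons and growth cones, where local protein synthesis takes part in regrowth. The same messenger RNAs are among the most abundant in a cell, and on a microarray they therefore come close to the brightest value that the scanner can record.

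The tract is shown first as a feature known for these messenger RNAs, while the genes themselves were chosen by name. Windows of 20 bases before and 10 bases from the annotated gene start were taken from RefSeq (GRCr8), with the unbroken run of C and T from the annotated start in capitals wherever it has the form of a C followed by at least 4 more C or T. The first 6 windows have such a run, and the last 2 do not.
Rplp1 (chr8:71290863-71290892, minus strand): tgcgcgcaggcgcatgtgatCCTTTCCTCa
Rpl10 (chrX:157205830-157205859, plus strand): atgcgcaggcgtgggagcgtCTCTTTTCCT
Rpl31 (chr9:49143091-49143120, plus strand): ccatcccacaatccctcgcgCCTTTCCTTT
Rpl37 (chr2:55942925-55942954, plus strand): ggaagtggtaggcgtactttCTCTTCCggt
Rps26 (chr7:1643395-1643424, minus strand): gtcgggagagccgccgggtcCTCTTTCgag
Rps7 (chr6:50999436-50999465, minus strand): tgttctcgcgagagctgtgtCTCTTTCTaa
Rpl5 (chr14:1995216-1995245, minus strand): cagccactctctttcccacgtcgcttgcgt
Rps6 (chr5:106420531-106420560, minus strand): ttcgtgacgcctcctaggcggtcggctgtg
Of the 55 ribosomal protein genes with a window, 23 (41.8%) had the run at the annotated start, against 881 of all 33469 windows (2.63%). The search read only the strand of the gene, and a window without the run says only that these letters do not stand at that annotated start. Among never saturated probes, the 17 probes of genes with the run had a median ratio of 0.09 at day 21 and 0.13 at day 7. The 31 probes of genes without it had a median of 0.08 at day 21 and 0.10 at day 7, so the medians lay close to each other. When arrays were centred on the median in place of loess, 8 of all 59 never saturated probes were above 0 at day 21 and 21 at day 7.

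All 102 probes passed the filter on dim probes, and 95 were well above background on all 20 arrays in both channels. They were bright: 43 probes of 39 genes were saturated on at least 1 array, which is 42.2% of the members against 1.24% of all tested probes (426 probes). The other 59 probes were never saturated, and 30 genes had no saturated probe at all. The mean of the red and green log2 signals ran from 13.1 to 15.7 (median 14.4) among saturated members and from 6.65 to 14.2 (median 12.1) among never saturated members. The limit between the classes fell among probes of like brightness: Rpl24, a large subunit protein, was saturated on 1 array, whereas Rpl34, also of the large subunit, reached a red signal of 64940 and was never saturated. Ribosomal protein genes have many near-identical copies, with 908 ribosomal pseudogene entries in RefSeq and 356 further probes on the array described as ribosomal protein, 340 of them as similar to 1, so a probe may collect signal from more than the gene it names.

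Saturation followed the red dye and the animal. Over all arrays a member was saturated in red 193 times and in green 43 times. On dye-swap arrays the sprouting (green) channel was saturated 15 times and the non-sprouting (red) channel 115 times. On forward arrays the sprouting (red) channel was saturated 78 times and the non-sprouting (green) channel 28 times. Counting a probe once for each array, members were saturated 38 times on day 21 arrays, all in red, and 159 times on day 7 arrays. Day 7 replicate 1 alone had 37 saturated members on its dye-swap array and 42 on its forward array, against 0 to 16 on the other 18 arrays. Of the 43 saturated probes, 25 were saturated in that animal only.

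**Figure D1:**
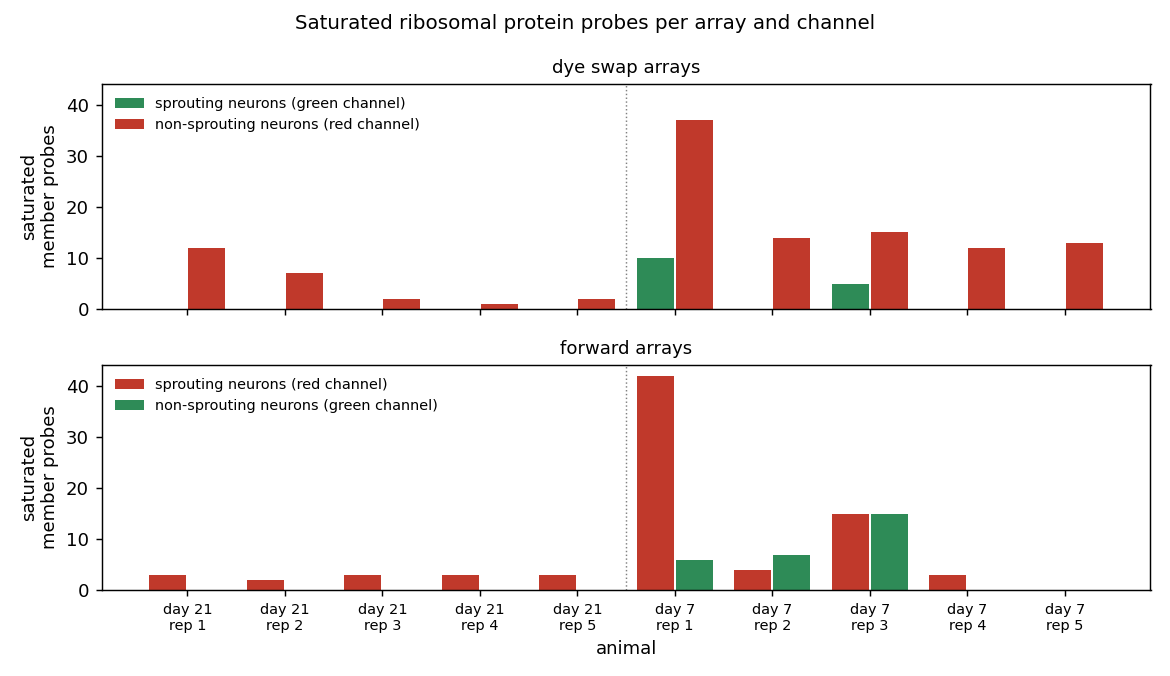
Number of ribosomal protein probes (y axis) flagged saturated on each array, by animal (x axis, day 21 left of day 7), with dye-swap arrays above and forward arrays below. Bars give sprouting neurons left of non-sprouting neurons, and their colour is the dye; red channels were saturated 193 times and green channels 43 times, with red most often in day 7 replicate 1 and green in day 7 replicate 3.

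Where both channels of a spot were saturated, different genes gave the same ratio. On the dye-swap array of day 7 replicate 1, 10 probes were at the ceiling in both channels, among them Rplp1, Rps27a, Rps6 and Rpl9, with red signals of 65220 and green signals of 65200 to 65250. Their turned ratios ran from 1.35 to 1.35, within 0.02 of each other. On the forward array of the same animal 6 probes were at both ceilings, and all had a ratio of -0.55. In day 7 replicate 3 the 5 such probes of the dye-swap array read 0.48 and the 14 of the forward array read -0.06. A ratio between channels that have both reached the ceiling holds no information on the neurons; its value is what loess gave to that brightness on that array.

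Where only the red channel was saturated, the ratio was a bound whose side depended on the orientation. On dye-swap arrays the red channel held non-sprouting neurons, so the ratio before loess could only be too high: 97 of 100 such values of saturated members were above 0, with a median of 0.51. Values of the same probes with neither channel saturated had a median of 0.05 on dye-swap arrays, with 192 of 315 above 0. On forward arrays the red channel held sprouting neurons, and 28 of 54 such values were above 0, with a median of 0.05. Without day 7 replicate 1 that forward median was -0.20, with 3 of 18 above 0. Forward values with neither channel saturated had a median of 0.06, with 230 of 347 above 0.

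At day 21 the median ratio of the never saturated members was 0.08, a ratio of 1.06 of sprouting to non-sprouting signal, with 50 of 59 probes above 0, and it was -0.13 with 8 probes above 0 when arrays were centred on the median in place of loess. The saturated members had a median of 0.08 with 40 of 43 above 0, and -0.14 with 0 above 0 under median centring. Over all 34220 probes in the fit, 49.1% were above 0 at day 21, with a median of -0.00. The animals differed more than the medians did. The medians of never saturated members were -0.06, 0.04, 0.14, 0.16 and 0.12 in day 21 replicates 1 to 5. The medians of saturated members were 0.01, 0.11, 0.14, 0.25 and -0.17 in the same animals. Averaged over the 5 animals, the medians were 0.08 ± 0.09 for never saturated and 0.07 ± 0.16 for saturated members (SD, n = 5), so for each class the SD was as large as the mean or larger. The classes fell on opposite sides of 0 in day 21 replicates 1 and 5, with the saturated members above the never saturated ones in replicate 1 and below them in replicate 5.

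At day 7 the median ratio of the never saturated members was 0.12, a ratio of 1.09, with 54 of 59 above 0, and it was -0.04 with 21 above 0 under median centring. The saturated members had a median of 0.16, a ratio of 1.12, with 41 of 43 above 0, and -0.01 with 19 above 0 under median centring. Over all probes 48.8% were above 0 at day 7. 1 animal stood far above the others. The medians of never saturated members were 0.59, 0.01, -0.04, 0.02 and 0.07 in day 7 replicates 1 to 5, and those of saturated members were 0.52, -0.02, 0.01, 0.03 and 0.12. Without replicate 1 the day 7 median was 0.01 for never saturated members, with 31 of 59 above 0, and 0.05 for saturated members, with 27 of 43 above 0. With saturated spots set to missing, 31 of the saturated probes kept a value at day 7, and their median was -0.00 with 15 above 0. In that setting 0 of the 43 saturated probes kept a value in replicate 1. It therefore cannot tell the effect of saturated spots from that of leaving out this animal.

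**Figure D2:**
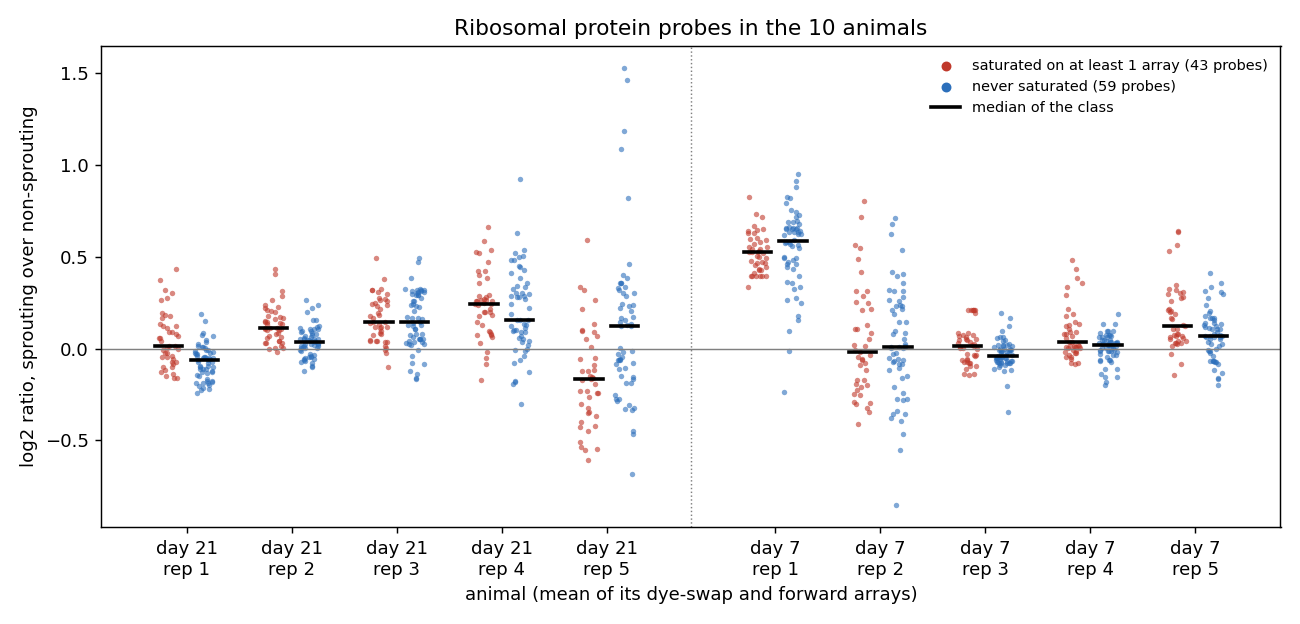
Log2 ratio of sprouting over non-sprouting signal (y axis, loess values) of each ribosomal protein probe in each of the 10 animals (x axis, day 21 left of day 7). Points are probes, saturated ones left of never saturated ones, and bars are class medians; day 7 replicate 1 stands at 0.52 and 0.59, the other animals between -0.17 and 0.25, and with median centring the class medians of each day fall below 0.

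In day 7 replicate 1 the ratio of sprouting to non-sprouting signal was 1.501 for the median never saturated member and 1.44 for the median saturated member. Of the never saturated members, 56 of 58 with a value were above 0. The dye orientations gave medians of 0.49 on the dye-swap array and 0.68 on the forward array for never saturated members, so this animal's ratio was above 0 in both. For saturated members the medians were 0.90 on the dye-swap array and 0.13 on the forward array. The correlation between the orientations across probes was 0.83 over the 58 never saturated members with both values and -0.59 over all members with a value; these probes share 1 pair of RNA pools. Under median centring this animal's medians were 0.47 for never saturated and 0.38 for saturated members, above 0 as with loess. Other saturated probes, those that are not ribosomal, had medians of 0.48 on its dye-swap array and -0.11 on its forward array. The 328 tested probes described as ribosomal protein but outside the list had medians of 0.45 and 0.51 on the dye-swap and forward arrays.

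The same animal was the brightest, with 94.6% of probes well above background in sprouting and 95.3% in non-sprouting neurons, and it stood apart in the median of blood cell markers. Its 8 tested blood marker probes had a median ratio of 0.55, against -0.01 to 0.02 in the other 4 day 7 animals. They were uneven: of the platelet markers Pf4 was at 3.81 and Ppbp at 0.36. Of the red cell markers Hbb was at 2.28, Slc4a1 at 0.58 and Alas2 at 0.53. Of the neutrophil markers S100a9 was at 1.67, S100a8 at -0.01 and Ngp at -0.05, so the probes of 1 cell type did not move together. Its 13 microglia and macrophage probes had a median of -0.18 and ran from -0.93 for Cd74 to 2.00 for Trem2, with Tyrobp at 1.30, Ptprc at 0.43 and Itgam at 0.39 and both C1qa probes below 0, at -0.52 and -0.46. The part of blood cells, of phagocytes and of brightness in the ribosomal protein ratios was not tested.

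**Figure D3:**
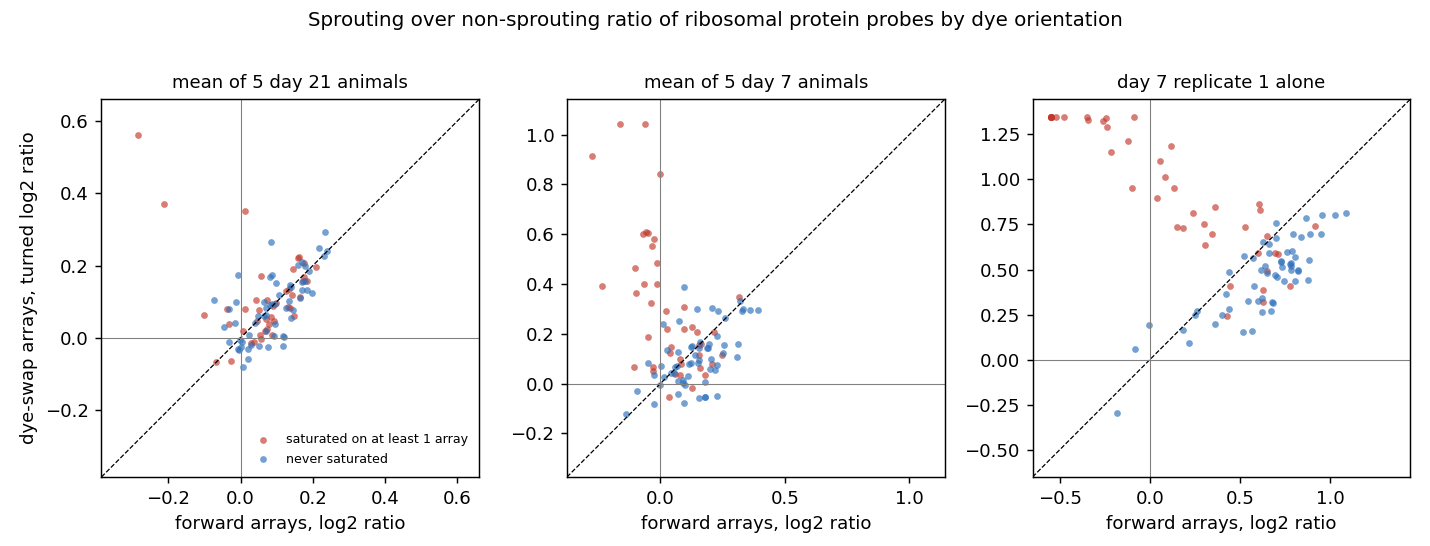
Ratio on dye-swap arrays, turned to sprouting over non-sprouting (y axis, log2), against the ratio on forward arrays (x axis, log2) for each ribosomal protein probe, as the mean of the day 21 animals, the mean of the day 7 animals, and in day 7 replicate 1 alone. The dashed line marks equal values. In day 7 replicate 1 the never saturated probes correlate between the orientations (r = 0.83), with medians of 0.49 on the dye-swap and 0.68 on the forward array. The saturated ones rise to a ceiling of 1.35 on the dye-swap array, and positions relative to 0 depend on loess.

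Over all 5 day 7 animals, saturated members had a median of 0.22 on dye-swap arrays and 0.03 on forward arrays, whereas never saturated members had 0.08 and 0.15. At day 21 the medians were alike in both orientations, at 0.08 and 0.07 for saturated members and 0.08 and 0.09 for never saturated members. In limma's test of dye swap minus forward, 12 of 102 members passed an adjusted p of 0.05, against 18.4% of all probes. Of these, 6 were saturated members, all of them higher on dye-swap arrays, against 8.1% of all probes higher there. Rpl17, which lines the peptide exit tunnel, had the largest difference, at 1.03 ± 0.14 (SE, adjusted p = 0.00207), with a mean over 10 animals of 0.80 on dye-swap and -0.22 on forward arrays. Rplp1, a stalk protein that recruits elongation factors, differed by 0.84 ± 0.13 (adjusted p = 0.00301), at 0.71 on dye-swap and -0.14 on forward arrays. Rps27a, which is made as a fusion with ubiquitin, differed by 0.76 ± 0.13 (adjusted p = 0.00457), at 0.63 and -0.13. The other 3 saturated members were Rpl26, Rps21 and a probe of Rps2. Of the 6 never saturated members, Rps26 was higher on dye-swap arrays and Rps9, Rps10, Rpl10l, a probe of Rpl36a and a probe of Rps2 were lower. With arrays centred on the median in place of loess, the median dye difference of all members was -1.14, so the direction of these differences depends on loess.

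No member passed an adjusted p of 0.05 in limma for sprouting against non-sprouting neurons at day 21, at day 7 or over both days, and 0.0% of all probes did. Over all probes, 1627 had an unadjusted p under 0.05 at day 21, 2071 at day 7 and 2198 over both days. At day 21, 2 members had such a p and a higher ratio, which is 1.96% of them against 1.82% of all probes. At day 7, 19 members did (18.6%, 10 saturated and 9 never saturated) against 3.34% of all probes, and 0 members were lower (2.71% of all probes). Over both days 26 members did, 15 saturated and 11 never saturated, against 3.22% of all probes. The 6 smallest p at day 7 among members belonged to saturated probes: Rpl17, Rpl9, Rps6, Rpl26, Rplp1 and Rps27a, each saturated on 10 to 19 of the 20 arrays. A ratio above 0 in all 5 animals was found for 8 members at day 21 (2.40% of all probes) and for 18 members at day 7, 13 of them saturated (4.86% of all probes).

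Rplp1 shows how saturation entered the values. Its red signal was between 64840 and 65250 on 19 of the 20 arrays, and its spot was flagged saturated on 18. The ratio was 0.43, 0.43, -0.01, 0.14 and -0.61 in day 21 replicates 1 to 5, and 0.40, 0.71, 0.21, 0.48 and 0.64 in day 7 replicates 1 to 5. The day 7 animals were all above 0 and the day 21 animals lay on both sides. Its mean was 0.49 ± 0.13 at day 7 (SE, adjusted p = 0.71) and 0.08 ± 0.13 at day 21 (adjusted p = 0.965). The 2 values shared with other genes in day 7, 0.40 in replicate 1 and 0.21 in replicate 3, are those of spots at the ceiling in both channels of both arrays. The 0.71 of replicate 2 averages 1.15 on the dye-swap array with 0.28 on the forward array. That forward spot was also at both ceilings, with the same ratio as Rpl17, Rpl26 and Rpl9. Where only red was saturated, a dye-swap ratio could only be too high before loess, so not all day 7 signs were measured. At day 21, the Rplp1 ratio was -0.14 with median centring.

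Among the other most saturated members of the large subunit, the Rpl17 probe saturated on 19 arrays had 0.26, 0.29, 0.12, 0.18 and -0.16 in the day 21 animals and 0.40, 0.56, 0.21, 0.38 and 0.63 in the day 7 animals. Its day 7 mean of 0.44 ± 0.07 did not pass (adjusted p = 0.436). Rpl26, which lies at the exit tunnel and binds p53 messenger RNA, was saturated on 10 arrays by 1 of its probes, with 0.27, 0.32, 0.32, 0.47 and -0.37 in the day 21 animals and 0.44, 0.55, 0.21, 0.33 and 0.56 in the day 7 animals. Rpl9, a large subunit protein, had 0.30, 0.16, 0.00, -0.02 and 0.09 in the day 21 animals and 0.40, 0.22, 0.21, 0.29 and 0.28 in the day 7 animals. In all 3 probes the day 7 animals were above 0, but not all of these signs were measured. The 0.40 of Rpl17 and Rpl9 in replicate 1 came from spots at the ceiling in both channels of both arrays. So did the 0.21 of Rpl17 and Rpl26 in replicate 3. Such values hold no information on the neurons, and the day 7 means include them. On 1 array only, this held for all 3 in replicate 2, Rpl26 in replicate 1 and Rpl9 in replicate 3. The Rpl17 probe was saturated in red on both arrays of replicate 4, at 1.19 on the dye-swap and -0.42 on the forward array. Those values are bounds on opposite sides. In its replicate 5 the dye-swap array was saturated in red, at 1.34, and the forward array, not saturated, was at -0.07. The day 21 means of the 3 probes were -0.08, -0.02 and -0.11 under median centring in place of 0.14, 0.20 and 0.11.

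Never saturated members of the large subunit carried no saturation flag on any array, although the signal of Rpl34 came close to the ceiling. Rpl27, which is mutated in some human families with Diamond-Blackfan anaemia, had 0.05, 0.01, 0.23, 0.22 and 0.12 in the day 21 animals and 0.65, 0.21, 0.06, 0.02 and 0.17 in the day 7 animals. It was above 0 in all 10 animals, with a mean over both days of 0.17 ± 0.06 (SE, adjusted p = 0.732), and under median centring its day 21 mean was -0.10. The never saturated probe of Rpl26 had 0.02, 0.15, 0.32, 0.45 and 0.00 in the day 21 animals and 0.46, 0.22, -0.08, -0.03 and 0.36 in the day 7 animals. Rpl18, a large subunit protein, was measured by 2 never saturated probes with day 7 means of 0.34 and 0.33. The brighter one had -0.02, 0.06, 0.32, 0.34 and -0.45 in the day 21 animals and 0.95, 0.42, -0.04, 0.07 and 0.32 in the day 7 animals, and its day 7 mean of 0.34 ± 0.14 was 0.19 without replicate 1. Rpl29, known in other cells as a heparin-binding surface protein, had -0.05, 0.05, 0.26, 0.32 and 0.36 at day 21 and 0.64, -0.02, -0.05 and 0.05 in the 4 day 7 animals with a value. The signs of the day 21 means of Rpl18, Rpl29 and this Rpl26 probe turned under median centring.

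The members named for their roles in the large subunit did not pass in either day. Rpl5, which with 5S RNA binds Mdm2 when ribosome assembly is disturbed, had 3 probes with day 21 means of 0.05, 0.26 and 0.18 and day 7 means of 0.01, 0.08 and -0.05. Rpl3, near the site where peptide bonds form, had -0.19, -0.09, 0.24, -0.19 and 1.19 in the day 21 animals and 0.49, -0.27, 0.06, 0.01 and -0.07 in the day 7 animals. The never saturated probe of Rpl10, which joins late in the maturation of the large subunit, had -0.06, 0.09, 0.12, 0.19 and -0.03 in the day 21 animals and 0.48, -0.06, 0.01, 0.03 and 0.02 in the day 7 animals. Without day 7 replicate 1, its day 7 mean was 0.00 in place of 0.10. Rpl22, needed for T cell development in mouse, had -0.01, 0.11, 0.05, -0.00 and -0.06 in the day 21 animals and 0.88, -0.24, -0.00, -0.02 and 0.14 in the day 7 animals. Rpl38, whose loss in mouse disturbs translation of homeobox messenger RNAs, had -0.08, 0.07, 0.14, 0.50 and -0.01 in the day 21 animals and 0.09, 0.23, 0.16, 0.07 and 0.06 in the day 7 animals. Rpl38 was a dim probe, with a mean log2 signal of 7.81, and all 5 of its day 7 animals were above 0, with replicate 1 not the highest. Rpl37a, as dim at 7.27, was likewise above 0 in all 5, at 0.16, 0.35, 0.19, 0.06 and 0.11, with a day 7 mean of 0.18 ± 0.05 (adjusted p = 0.772) that was 0.17 under median centring. Rplp0, Rplp2 and Rpl11 had no member probe and were not analysed here.

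In the small subunit, Rps26, which contacts messenger RNA at the exit channel, had the smallest p among never saturated members at day 21. It had -0.11, 0.24, 0.17, 0.43 and 0.15 in the day 21 animals and 0.55, 0.23, 0.10, 0.19 and 0.14 in the day 7 animals, above 0 in 9 of 10 animals. Its mean was 0.17 ± 0.08 at day 21 (SE, adjusted p = 0.923) and 0.24 ± 0.08 at day 7 (adjusted p = 0.788), and -0.05 and 0.05 under median centring. The mean over 10 animals was 0.33 on dye-swap arrays and 0.09 on forward arrays, so this never saturated probe too was higher on dye-swap arrays. Rps20, a protein of the head of the small subunit, had 0.01, 0.00, 0.31, 0.63 and 0.24 in the day 21 animals and 0.75, 0.31, -0.07, 0.04 and 0.28 in the day 7 animals by its never saturated probe. In Rps20, day 21 replicates 3 and 4 and day 7 replicates 1 and 2 were the high animals. Rps7, bound by Mdm2, had -0.13, 0.02, 0.23, 0.28 and 0.40 at day 21, and 0.10, 0.01, 0.04 and -0.16 in the 4 day 7 animals with a value. Rps15, whose tail reaches the decoding site, was measured by 1 dim probe at 0.46, 0.19, 0.04, 0.13 and -0.01 at day 7, and the other Rps15 probe had a day 7 mean of -0.06.

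Rps6, the substrate of S6 kinase and the usual readout of mTOR activity, was saturated on 10 arrays. It had 0.18, 0.11, 0.14, 0.09 and -0.17 in the day 21 animals and 0.41, 0.11, 0.19, 0.36 and 0.30 in the day 7 animals. The day 7 mean was 0.28 ± 0.06 (SE, adjusted p = 0.514) and the day 21 mean 0.07 ± 0.06 (adjusted p = 0.924), and under median centring these were 0.12 and -0.15. Rps27a, saturated on 14 arrays, had 0.37, 0.41, 0.11, 0.26 and -0.24 in the day 21 animals and 0.40, 0.02, 0.21, 0.44 and 0.53 in the day 7 animals. Rps23, which guards accuracy in the decoding centre, was saturated on 10 arrays and had 0.32, 0.26, 0.02, 0.06 and -0.43 in the day 21 animals and 0.40, 0.21, 0.21, 0.19 and 0.32 in the day 7 animals. Rps21, saturated on 8, had 0.09, 0.17, 0.31, 0.54 and -0.17 in the day 21 animals and 0.47, 0.28, 0.07, 0.18 and 0.30 in the day 7 animals. In these 4 genes day 21 replicate 5 was the only animal below 0. For Rps27a and Rps23, the 0.40 in day 7 replicate 1 and the 0.21 in replicate 3 came from both ceilings on both arrays. Such values hold no information on the neurons. Rps6 in day 7 replicates 1 and 3 and Rps21 in day 7 replicate 3 were at both ceilings on 1 array.

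Of the remaining small subunit genes named for their roles, Rps3, which lies at the entry of the messenger RNA channel, had -0.15, 0.06, 0.03, -0.06 and -0.06 in the day 21 animals and 0.47, -0.34, -0.01, -0.02 and 0.13 in the day 7 animals. Rps14, whose loss of a copy marks the human 5q- syndrome, had -0.13, 0.07, 0.49, 0.48 and -0.17 in the day 21 animals and 0.69, 0.62, -0.10, -0.04 and 0.41 in the day 7 animals, with a day 7 mean of 0.32 ± 0.14 (SE, adjusted p = 0.823). Rps4x, an X-linked protein with a Y-linked partner in human, had -0.18, -0.10, 0.32, 0.02 and 1.09 in the day 21 animals and 0.83, -0.27, -0.09, 0.03 and 0.09 in the day 7 animals. Day 7 replicate 1 was high in these 3 genes, at 0.47, 0.69 and 0.83, and they differed in which other animals were high. No mean of theirs was distinguishable from 0 by limma's test. Rpsa and Rps19 were not analysed here.

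**Figure D4:**
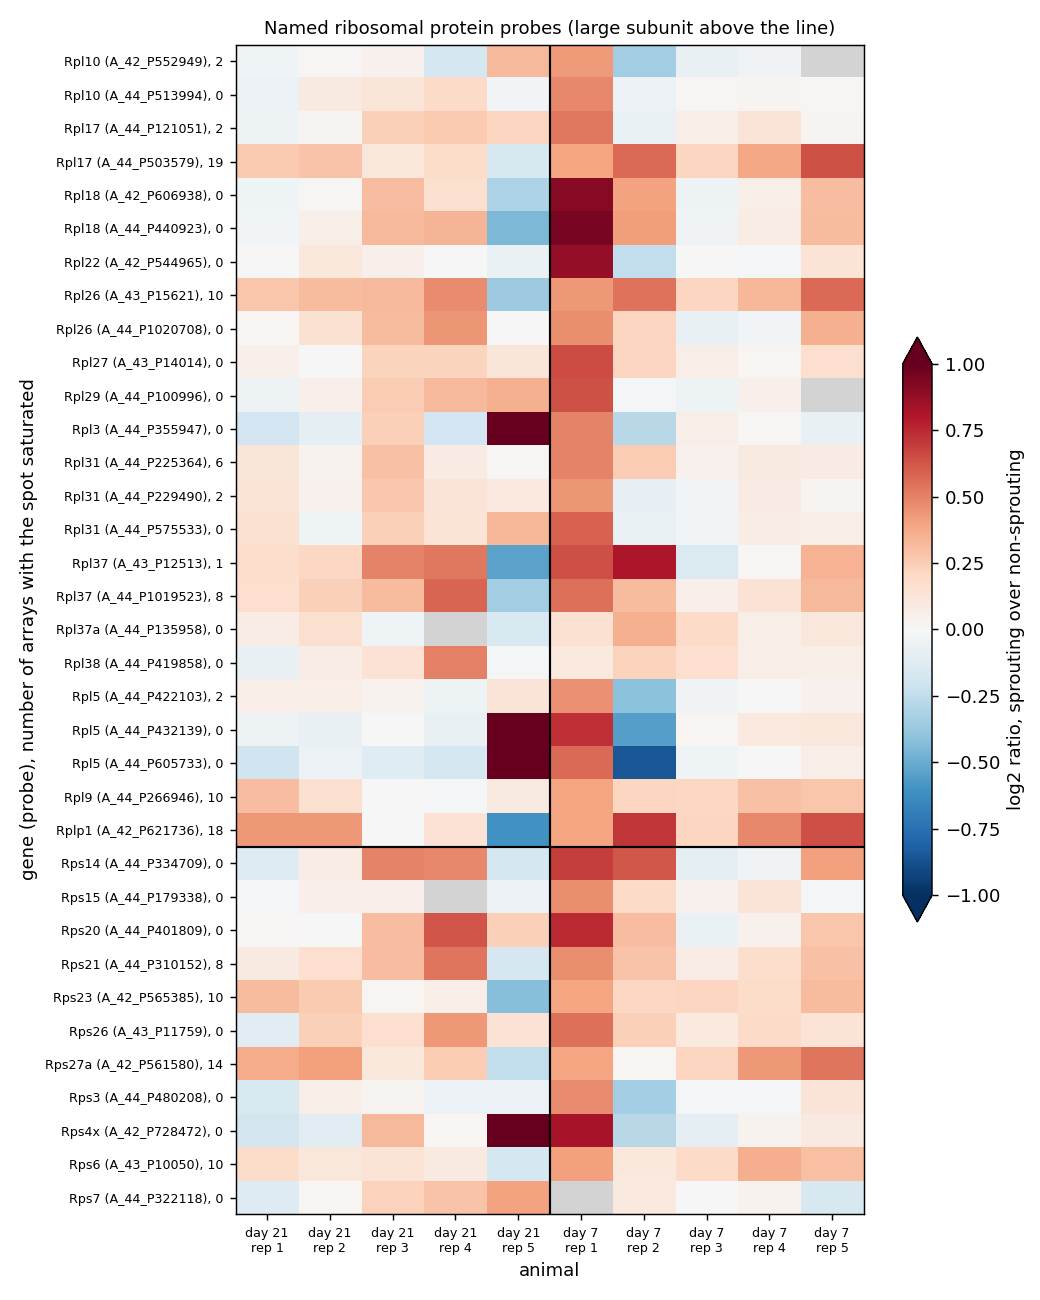
Log2 ratio of sprouting over non-sprouting signal (colour, loess values, colours end at 1 and -1) of the 35 named ribosomal protein probes (rows, large subunit above the line, with the number of arrays on which each was saturated) in the 10 animals (columns, day 21 left of day 7). Grey marks an animal without a value; day 7 replicate 1 is above 0 in each row with a value, day 21 replicate 5 holds the highest value (Rpl5, 1.53) and day 7 replicate 2 the lowest (Rpl5, -0.86), while 30 of these probes change the sign of their day 21 mean under median centring.

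Members with 2 or more probes could be compared within genes. Of 24 such genes, 21 had the same sign for all their probes at day 21 and 19 did at day 7. Of all 102 member probes, 88.2% were above 0 at day 21 and 93.1% at day 7. A shared sign was therefore common among members and says little on agreement within genes. Under median centring 8 of the 102 were above 0 at day 21. The 4 genes whose probes differed most in saturation were Rpl17, Rpl26, Rpl37 and Rpl31. Rpl17 had a day 7 mean of 0.44 by the probe saturated on 19 arrays and 0.14 by the probe saturated on 2, and at day 21 both had 0.14. Rpl26 had 0.42 at day 7 by the probe saturated on 10 arrays and 0.19 by the never saturated probe, against 0.20 and 0.19 at day 21. Rpl37, a zinc-binding large subunit protein, gave 0.28 at day 7 by the probe saturated on 8 arrays and 0.33 by that saturated on 1, whose accession RefSeq lists as Rpl37l1. Rpl31, another protein of the exit tunnel, had 0.19, 0.09 and 0.13 at day 7 by probes saturated on 6, 2 and 0 arrays. In Rpl17 and Rpl26 the more saturated probe was the higher at day 7, in Rpl31 in part, and in Rpl37 it was not.

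Only 3 of 102 members were above 0 in all 10 animals, against 0.169% of all probes. They were Rpl27, which was never saturated, Rpl31 by the probe saturated on 6 arrays, and Rpl30. Rpl30, a large subunit protein chosen here after its values were seen, was also saturated on at least 1 array. An Rpl31 probe was at both ceilings on 1 array each of day 7 replicates 1 and 3, where a ratio holds no information. Under median centring, 8 of the 102 members were above 0 at day 21, so these signs depend on loess. Rpl30 had 0.12, 0.03, 0.18, 0.36 and 0.26 in the day 21 animals and 0.52, 0.13, 0.02, 0.01 and 0.12 in the day 7 animals. The means over both days were 0.17, 0.15 and 0.18 for Rpl27, Rpl31 and Rpl30, with adjusted p of 0.732, 0.715 and 0.703 in limma.

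Between the days, the median of day 21 minus day 7 was -0.03 for never saturated and -0.08 for saturated members, with 19 of 59 and 9 of 43 probes above 0 (49.0% of all probes). No member and 0.0% of all probes passed limma's test of this difference, where 1411 probes had an unadjusted p under 0.05. Among members 3 had an unadjusted p under 0.05, all lower at day 21, against 2.48% of all probes: Rpl17 (-0.30 ± 0.10, SE), Rps6 (-0.21 ± 0.08) and Rpl9 (-0.17 ± 0.07), each with an adjusted p of 0.924 in limma and saturated on at least 10 arrays. Without day 7 replicate 1 the medians were 0.06 for never saturated and 0.03 for saturated members, so the sign turned when that animal was left out. 1 scan date held 1 day 21 animal and 2 day 7 animals, and day 7 replicate 1 was not among them. Within that date the medians were also below 0, at -0.11 and -0.10. These p-values measure the spread between animals only, and scan date was nested within day for the other animals.

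Ribosomal protein probes differed among themselves most in day 21 replicate 5 and day 7 replicate 2. The SD across members was 0.39 in day 21 replicate 5 and 0.30 in day 7 replicate 2, and 0.09 to 0.21 in the other animals. Over all tested probes it was 0.35 and 0.27 in the same 2 animals, so the spread was wide for the array as a whole there, and it was 0.37 in day 7 replicate 1. Named after their values were seen, the 5 highest probes of day 21 replicate 5 were the 2 never saturated Rpl5 probes at 1.53 and 1.47, Rpl3 at 1.19, Rps4x at 1.09 and Rpl4, which reaches into the exit tunnel, at 0.82. All 5 were below 0 in day 7 replicate 2, at -0.55, -0.86, -0.27, -0.27 and -0.47 in the same order. The 5 lowest of day 21 replicate 5 were Rpl36 at -0.68, Rplp1 at -0.61, Rpl13 at -0.55, Rps28 at -0.55 and Rpl37 at -0.54, and 4 of them were above 0 in day 7 replicate 2. For the first Rpl5 probe both dye orientations gave like values. It had 1.55 on the dye-swap and 1.51 on the forward array in day 21 replicate 5, and -0.51 and -0.60 in day 7 replicate 2. Rplp1, 1 of the 4 above 0 in day 7 replicate 2, had 1.15 on the dye-swap and 0.28 on the forward array there. Both channels of that forward spot were at the ceiling. The remaining Rpl5 probe, saturated on 2 arrays, had only 0.13 in day 21 replicate 5 and -0.41 in day 7 replicate 2, so probes of 1 gene differed within an animal.

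Across the 59 never saturated members, the correlation between these animals was -0.66, against -0.22 over the 32728 probes with both values. Day 21 replicate 4 and day 7 replicate 2 had 0.76 across 57 never saturated members and 0.11 across all probes. Over the 45 pairs of animals the correlation ranged from -0.66 to 0.76 across never saturated members and from -0.24 to 0.24 across all probes. These values describe probes that share arrays and brightness, and probes are not replicates. Within animals, the orientations of day 21 replicate 5 had a correlation of 0.97 across never saturated members and those of day 7 replicate 2 had 0.90, whereas day 7 replicate 3 had -0.16.

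**Figure D5:**
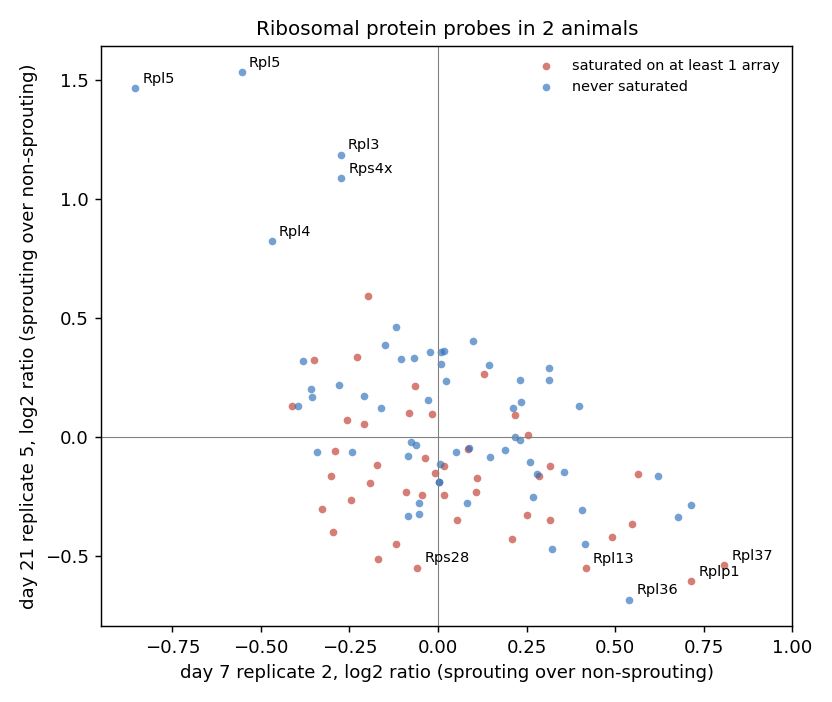
Log2 ratio of sprouting over non-sprouting signal of each ribosomal protein probe in day 21 replicate 5 (y axis) against day 7 replicate 2 (x axis), loess values. The named points are the 5 highest and 5 lowest probes of day 21 replicate 5; the 5 highest lie below 0 in day 7 replicate 2 and r is -0.66 across the 59 never saturated probes.

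Genes that build or control ribosomes were described in the same way. Of 70 listed ribosome biogenesis factors, 19 were tested by 24 probes, with a median of -0.02 at day 21 and 0.03 at day 7 and 0 probes with an unadjusted p under 0.05 in limma on either day. Npm1, a nucleolar chaperone of ribosome assembly, had 3 probes with day 21 means of 0.06, -0.08 and -0.21. Of 28 listed genes of mTOR signalling and oligopyrimidine tract control, 15 were tested by 20 probes, with a median of 0.04 at day 21 and 0.00 at day 7. The only probe of that list with an unadjusted p under 0.05 was Pabpc1, which binds poly(A) tails and has a tract of its own, at 0.20 ± 0.08 at day 7 (SE). Its day 7 animals had 0.57, -0.00, 0.22, 0.06 and 0.14, and without replicate 1, left out after seeing the data, the mean was 0.11. Bright housekeeping genes, with 25 of 54 probes saturated, had medians of 0.05 and 0.06. In day 7 replicate 1 the housekeeping median was 0.30, against -0.15 to 0.03 in the other day 7 animals. The biogenesis median was 0.14 there (others -0.05 to 0.01) and that of the mTOR list 0.06 (others -0.07 to 0.07). Under median centring the medians of these 3 lists were -0.16, -0.09 and -0.18 at day 21 and -0.14, -0.06 and -0.11 at day 7, so whether a list lay nearer to 0 than the ribosomal proteins depended on the centring.

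Of 16 listed neuron markers, 12 were tested by 13 probes, with medians of -0.08 at day 21 and -0.03 at day 7. Each probe was well above background on at least 13 of 20 arrays in sprouting and 18 in non-sprouting neurons. Only probes that passed the filter on dim probes were counted, so detection was set in part by that filter. The same fewest counts were 17 and 18 for oligodendrocyte, 15 and 17 for microglia and macrophage, and 16 and 15 for blood cell probes. They were 10 and 15 for astrocyte and 7 and 14 for endothelial and mural probes. Glial markers were present as well, with 16 astrocyte, 13 oligodendrocyte and 13 microglia and macrophage probes tested, and their medians ranged from -0.06 to 0.06. Of the oligodendrocyte probes, the median was -0.47 in day 7 replicate 2, and of the microglia probes it was -0.26 in day 21 replicate 4. Their part in the ribosomal protein ratios was not tested. In day 21 replicate 4 the correlation between the orientations over all probes was 0.05, against 0.32 to 0.89 in the other animals, and 0.82 across its never saturated members.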

How the data were processed

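RNA of sprouting and non-sprouting neurons of 10 rats was measured on 20 two-colour Agilent arrays, 1 dye-swap and 1 forward array per animal, which were averaged to 1 value, so n was 5 animals per day. Images were quantified with Agilent Feature Extraction 9.1.3.1, as the file headers state. The scanner files hold linear intensity values of spot and local background, deposited beside flags (0 or 1) for saturation, outliers and signal well above background. They also hold the program's log10 ratio of red over green, deposited after its own corrections. The authors' deposited table holds log2 ratios of red over green, and the sources used here do not give its normalization or centring. Of its columns, 20 correlated best with their own array (r of 0.900 to 1.00 with the loess values), and 20 further columns were not used.

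Intensities were corrected with normexp (offset 50) and normalized by loess within arrays in limma 3.58.1 (R 4.3.3, data.table version 1.17.8), with control spots at weight 0. Spots flagged as outliers, 11 to 4088 on an array, became missing. Saturated spots stayed in, and replicate spots were averaged. To be tested, a probe had to exceed background clearly in 1 cell type, on the dye-swap and forward arrays alike, in 3 or more animals of either day (34226 of 41012). An animal needed both orientations. Both days entered 1 lmFit and eBayes fit without covariates, and Benjamini-Hochberg adjustment ran over all probes with a threshold of 0.05. The fit was checked on simulated data. The arrays of an animal share their RNA, so the number of animals limits the precision. Probes were matched to RefSeq by accession (86), symbol (15) or synonym (1), and 4 symbols differ today.

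The members, gene lists and tests were chosen with earlier results of these data known. Named members were the 6 never saturated probes of smallest p at day 21, at day 7 and over both days, the 8 most saturated, the 4 genes whose probes differed most in saturation, genes picked for their roles, and those at the limit of a class; 1 member that the rule names is not reported here. Alternatives were saturated spots set to missing, no background subtraction, median centring, Feature Extraction's and the authors' ratios, other filters, each orientation alone, each animal left out, scan date or the animal as a block, and the brightest probe per gene.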

Additional observations from a re-analysis of the deposited data

Results flagged for a closer look

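In 9 of 74 groups of up to 5 animals checked, 1 animal stood apart from the others by more than 0.710, Dixon's limit for 5 values. Chance gives about 1 in 20 for a single group of 5, but the groups share the same animals, so that rate does not hold for their count. The Rpl29 group had only 4 animals with a value, to which the limit for 5 does not apply. In 5 of the 9 flagged groups the animal apart was day 7 replicate 1. The median of saturated members was 0.5249 there, against -0.02 to 0.12 in the other day 7 animals, and that of never saturated members 0.5864, against -0.04 to 0.07. Rpl10 by its never saturated probe was at 0.4809 (others -0.06 to 0.03), Rpl29 at 0.6391 (others -0.05 to 0.05) and Rpl31 by its never saturated probe at 0.5901 (others -0.07 to 0.08). In the other 4 groups it was day 21 replicate 5. The never saturated Rpl5 probes were at 1.531 (others -0.08 to -0.01) and 1.465 (others -0.20 to -0.06), the saturated Rpl26 probe at -0.3669 (others 0.27 to 0.47) and Rps6 at -0.1729 (others 0.09 to 0.18).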

How the results depend on the processing

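The counts of 0 probes at an adjusted p of 0.05 stood whenever 1 animal was left out, at each day, between days and over both. With the 20 arrays entered singly and the animal as a replicate block (correlation 0.501), 2 probes passed at day 21, 13 at day 7, 1 for the difference and 8 for the mean, none of them a member. Median centring gave 1 at day 21, no background subtraction gave 1 at day 7 and 1 for the mean, and the authors' ratios and the brightest probe per gene gave 1 each for the mean. Dye-swap arrays alone gave 134 for the mean, among them 1 member, Rpl17 by its most saturated probe (0.80, adjusted p = 0.00978). The probes called for dye swap minus forward numbered 6293, and 11564 without background subtraction, 24777 with median centring, 4065 with the authors' ratios, 1466 with the stricter filter and 3279 to 8585 with an animal left out. The day 21 medians were -0.14 for saturated and -0.13 for never saturated members under median centring. Leaving out an animal gave 0.04 to 0.13 for saturated and 0.04 to 0.12 for never saturated members at day 21, 0.05 to 0.20 and 0.01 to 0.16 at day 7, and -0.13 to 0.03 and -0.08 to 0.06 for the difference. Of the 35 named probes, 30 changed the sign of the day 21 mean under median centring, 13 that of the day 7 mean on forward arrays alone and 8 without day 7 replicate 1. The causes were not tested. A ratio of a saturated spot is a bound or holds no information, and ratios of probes this bright depend on what loess takes as unchanged.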
